A study of Mus musculus with 12 samples.

Results

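The 7 genes of the NMDA receptor subunits were examined for m6A peaks in the hippocampus of mice with and without Tyrobp. Members were chosen by gene symbol, as every peak that the deposited lists assign to Grin1, Grin2a, Grin2b, Grin2c, Grin2d, Grin3a or Grin3b, among 17744 genes with a peak in either genotype. All 7 carried at least 1 peak in each genotype, and together they held 27 of the 33622 peaks of WT mice and 25 of the 34935 peaks of Tyrobp-/- mice.

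The WT and Tyrobp-/- mice were males of 6 months on a C57BL/6 background. The knockout strain carried a TALEN-made deletion of a few bases in an exon of Tyrobp, which encodes an adaptor protein of microglia, and the controls were littermates without it. Each genotype was represented by 3 hippocampal samples, each pooled from 3 mice, and each sample gave 1 library after immunoprecipitation with an m6A antibody (IP) and 1 without (input). The 12 libraries held between 61189368 and 73554506 valid reads. GC content was 49.16% to 50.24% in the WT IP libraries and 48.46% to 49.33% in the Tyrobp-/- IP libraries, and its part in the results below was not tested. The authors called peaks on the 3 replicates of a genotype together, so each peak has 1 fold enrichment (reads in the IP over reads in the input, scaled by the caller) per genotype, with no replicate error, and no difference below was tested. All 7 marker genes of hippocampal excitatory neurons carried peaks in both genotypes, with 1 WT peak in Slc17a7 (the vesicular glutamate transporter), 5 in Prox1 (a dentate granule cell factor) and 2 in Fibcd1 (a CA1 marker). Tyrobp itself had 0 peaks in either list, so the lists did not check the genotype. A peak says little of a tissue where 17744 genes have one, and no markers of another tissue were set beside these 7, so the label was not checked further.

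The NMDA receptor is a glutamate-gated cation channel that opens only when glutamate and a co-agonist (glycine or D-serine) are bound and depolarization has expelled a blocking magnesium ion. It passes calcium, and in the hippocampus it starts the long-term changes of synaptic strength that underlie spatial learning. GluN1 (Grin1) binds the co-agonist and is part of every receptor. GluN2 subunits (Grin2a to Grin2d) bind glutamate and set the channel's kinetics, and GluN3 subunits (Grin3a and Grin3b) bind glycine and lower calcium entry. The m6A mark is a methyl group on adenosine of mRNA, written within a short GAC-centred motif, often in long exons and near the stop codon, and read by proteins that affect splicing, translation and decay.

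**Figure D1:**
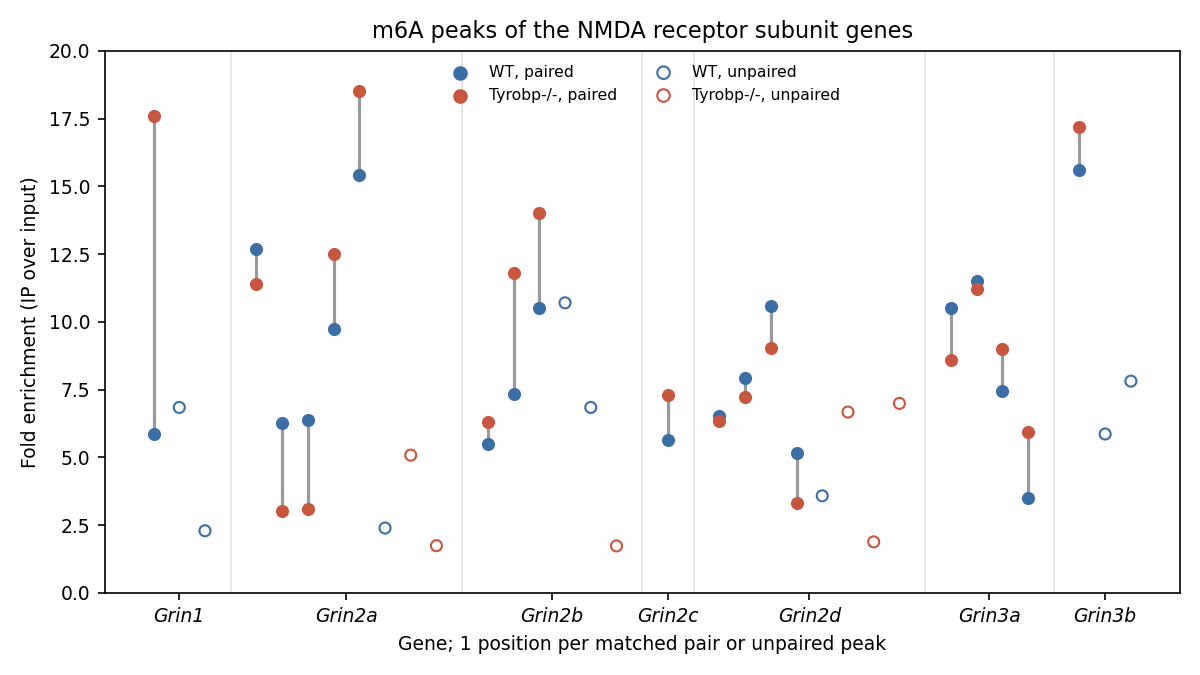
Fold enrichment of IP over input (vertical axis) of each m6A peak of the 7 genes, with WT in blue and Tyrobp-/- in red. Filled points joined by a line are a pair of overlapping peaks that are each other's best partner between the genotypes. Open points are peaks without such a partner, some of which still overlap a peak of the other genotype. Each point is 1 value over pooled replicates. The Grin1 pair spans the longest line, from 5.86 to 17.6, and the Grin2a peaks of 15.4 and 18.5 are near the top of the range.

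The strongest well-supported peak of the family lay in the 3′ UTR of Grin2a, the subunit that predominates at mature synapses. It had a fold enrichment of 15.4 in WT mice and 18.5 in Tyrobp-/- mice, higher than 91.2% and 94.9% of the peaks in the respective lists. The lowest peaks were at 2.29 in WT mice (Grin1) and 1.73 in Tyrobp-/- mice (Grin2b). The median over the peaks of the family was 6.84 for WT and 7.22 for Tyrobp-/-, where the lists as a whole had medians of 5.54 and 5.72. Medians above the lists were also found for AMPA receptor genes (7.63 and 6.94) and kainate receptor genes (9.41 and 10.2). The WT median of 6.84 is a value that 1281 WT peaks share. Its genes had a median of 4 peaks each in both genotypes, against 2 for all genes with a peak. In bulk tissue, fewer cells of a type and less RNA per cell cannot be told apart.

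By the authors' annotation, 3′ UTRs held 11 of the 27 WT peaks (40.7%) and 10 of the 25 Tyrobp-/- peaks (40.0%), beside 47.2% and 49.3% in the full lists. A further 6 WT and 7 Tyrobp-/- peaks were in 5′ UTRs, 2 and 2 in first exons, and 8 and 6 in other exons. Genes differed in where the peaks sat. Grin2a, Grin2b, Grin2d and Grin3a had peaks toward both ends, Grin2c had its only peak in the 3′ UTR, and Grin3b had all of its peaks in internal exons. The WT peaks of the 7 genes covered 12749 exonic bases and the Tyrobp-/- peaks 11858, of which 9459 were shared, or 74.2% of the WT and 79.8% of the Tyrobp-/- bases.

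**Figure D2:**
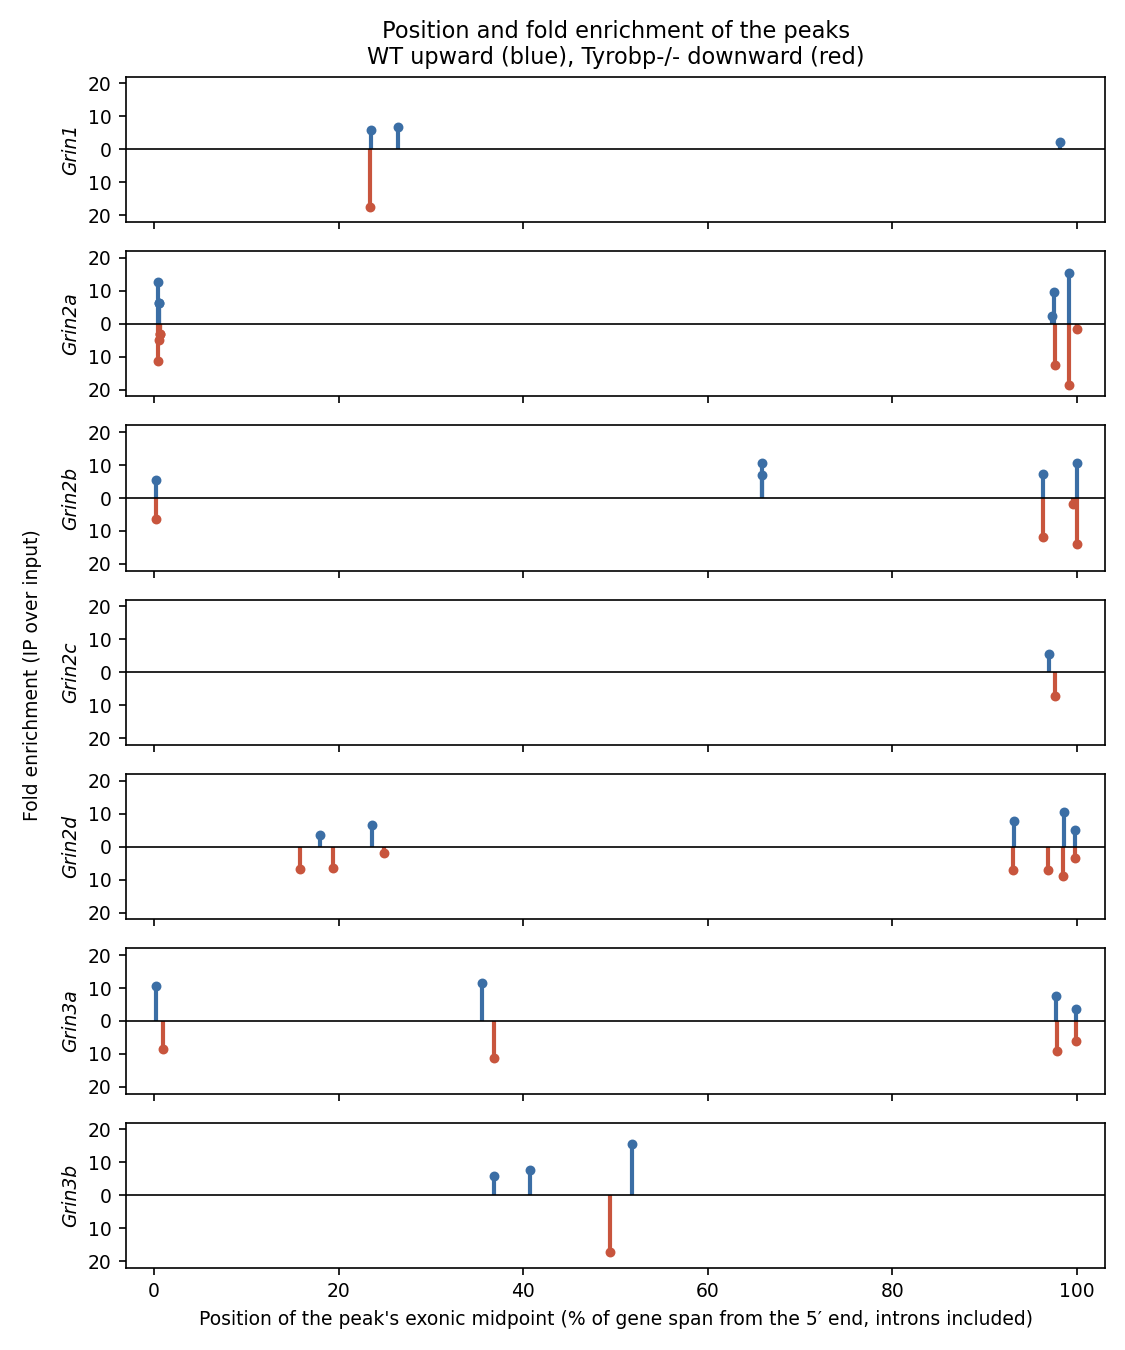
Position of each peak along its gene, from the 5′ end (0%) to the 3′ end (100%) of the gene span with introns included, against its fold enrichment, drawn upward for WT (blue) and downward for Tyrobp-/- (red). Peaks of Grin2a crowd at both ends, the 1 peak of Grin2c is at the 3′ end, and a pair of WT peaks of Grin2b near 65.9% of the span has no Tyrobp-/- counterpart.

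To compare the genotypes, peaks of the same gene that shared at least 1 exonic base were paired with their best partner, and the ratio of fold enrichment in Tyrobp-/- over WT was taken on the log2 scale. The 7 genes gave 19 pairs, from 70.4% of their WT and 76% of their Tyrobp-/- peaks, close to the 70.5% and 67.8% of all peaks that were paired. In 10 pairs the value was higher in Tyrobp-/- mice and in 9 it was lower, beside 53.6% of all pairs higher. The median log2 ratio was 0.14, against 0.05 over the 23687 pairs of all genes. Over all genes, 5% of pairs lay below -1.11 and 5% above 1.18. A ratio of 2 or more toward Tyrobp-/- was seen in 1 of the 19 pairs (Grin1), beside 6.93% of all pairs, and toward WT in 2 (both Grin2a), beside 6.06%. At a ratio of 1.5 the counts were 3 higher and 3 lower, beside 16% and 13.2% of all pairs. The 2 Grin2a pairs are overlapping calls of 1 place, and the counts were near the background.

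**Figure D3:**
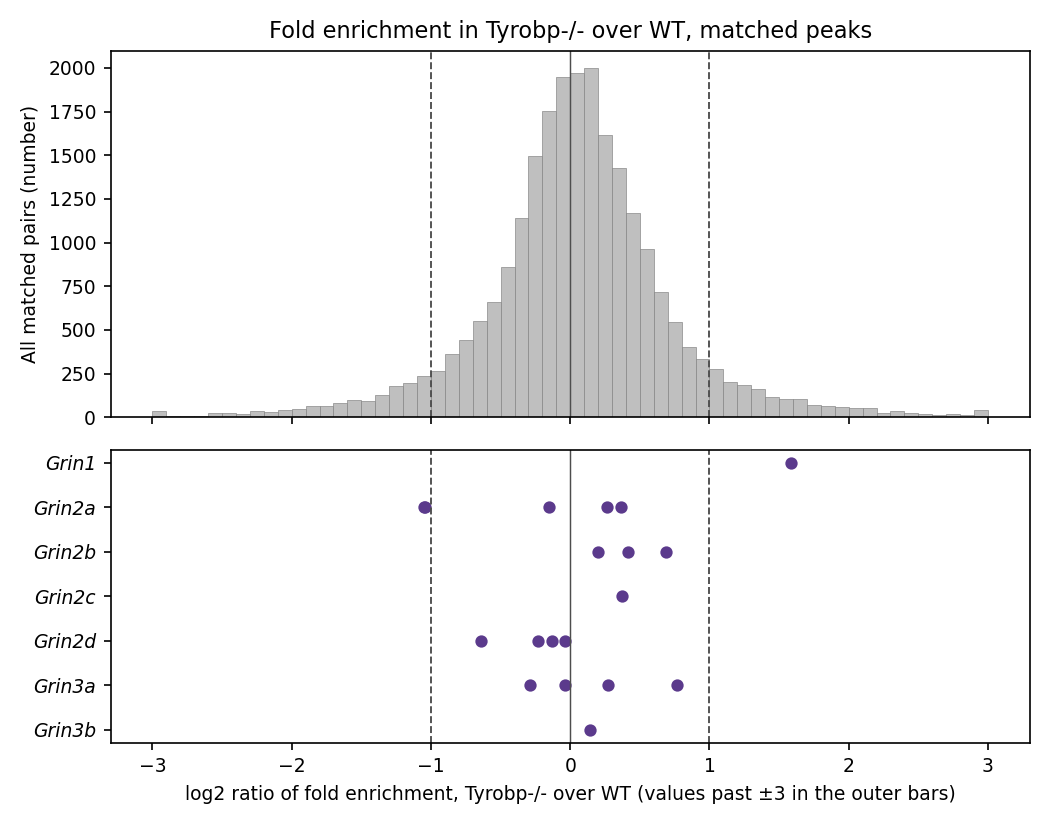
Upper panel, number of matched peak pairs of all genes by the log2 ratio of fold enrichment in Tyrobp-/- over WT (bars 0.1 wide, values beyond 3 either way placed in the outer bars); lower panel, the 19 pairs of the NMDA receptor genes, 1 point per pair. Dashed lines mark a 2-fold ratio. The Grin1 point at 1.59 and the overlapping Grin2a points at -1.05 lie past them, and all 4 Grin2d points are below 0 while all 3 Grin2b points are above.

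Grin1, on the reverse strand of chromosome 2 (25291181 to 25319095), gave the widest difference. The last exon of an annotated transcript of 3 exons, 23.5% of the way along the gene span, carried a WT peak at chr2:25312491-25312581 with a fold enrichment of 5.86 and a Tyrobp-/- peak at chr2:25312491-25312611 with 17.6, a ratio of 3.00 (log2 1.59) that exceeded 97.4% of all pairs. Both peaks were short, at 91 and 121 bases, and their log10 FDR of IP over input was -2.37 in WT and -7.68 in Tyrobp-/- mice. When a log10 FDR of at most -5 was required in both lists, the pair was lost and 0 pairs of the family remained past a 2-fold ratio toward Tyrobp-/-.

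The other Grin1 peaks had no partner of the same gene. A WT peak of 150 bases annotated to the same exon (chr2:25311653-25311802) had a fold enrichment of 6.84 with a log10 FDR of -1.51. The WT peak in the 3′ UTR (chr2:25291570-25291810) was low at 2.29 but had a log10 FDR of -114. It overlapped by 31 bases a Tyrobp-/- peak with a fold enrichment of 2.01 (chr2:25291181-25291600) that the authors assigned to Grin1os, an RNA antisense to Grin1. Grin1os had 2 peaks in each list, between 1.37 and 2.01. Whether strand was used in counting is not given in the sources used here, so reads of Grin1 and Grin1os cannot be told apart at this end. Pairing required the same gene, and only 31 of the 241 bases of the WT 3′ UTR peak lay in that Tyrobp-/- peak.

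Grin2a, on the reverse strand of chromosome 16 (9567898 to 9994923), had higher values in Tyrobp-/- mice toward its 3′ end and lower values toward its 5′ end. Its 3′ UTR pair (WT chr16:9571523-9572062) is the one at 15.4 in WT and 18.5 in Tyrobp-/- mice, a log2 ratio of 0.26. A neighbouring exon pair of 930 bases in each genotype (WT chr16:9577874-9578803) had 9.72 in WT and 12.5 in Tyrobp-/- mice, a log2 ratio of 0.36, with a log10 FDR listed as minus infinity in both. These are among the most strongly supported peaks of the family, and neither ratio reached 1.5.

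In the 5′ UTR of Grin2a, the WT list held 2 overlapping calls (chr16:9992098-9994174 and chr16:9992102-9992907) with fold enrichments of 6.26 and 6.36, and the Tyrobp-/- list held 2 (chr16:9992157-9992547 and chr16:9992162-9992579) with 3.03 and 3.08. Both pairs had a log2 ratio of -1.05, and since they cover the same place they are 1 difference that is counted 2 times. The log10 FDR was -56.8 and -57.6 in WT and -12.9 and -13.0 in Tyrobp-/- mice, so these pairs passed the stricter FDR in both lists. Another Tyrobp-/- call of 61 bases (chr16:9992698-9992758) lay inside the longer single-block WT peak and had a fold enrichment of 5.08. With all overlapping calls taken as 1 unit and the highest value of each genotype used, the log2 ratio was -0.32 and no longer past 2-fold. A short first-exon pair just upstream had 12.7 in WT and 11.4 in Tyrobp-/- mice, with a log10 FDR of -2.60 and -2.00. Peaks without a partner were a WT exon peak at 2.39 (chr16:9579012-9579522) and a Tyrobp-/- 3′ UTR peak at 1.74 (chr16:9567928-9568257).

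Grin2b, the subunit that dominates early in development and persists in the adult forebrain, lies on the reverse strand of chromosome 6 (135713233 to 136173125), and its 3 pairs were all higher in Tyrobp-/- mice. The 3′-most pair (WT chr6:135713233-135713563) had 10.5 in WT and 14 in Tyrobp-/- mice, a log2 ratio of 0.42. The other 3′ UTR pair (WT chr6:135729564-135730583) had 7.32 and 11.8, a log2 ratio of 0.69, higher than 87.4% of all pairs. The 5′ UTR pair (WT chr6:136171428-136173002) had 5.48 and 6.30, a log2 ratio of 0.20. None reached 2-fold, and each had a log10 FDR of -153 or lower in both genotypes.

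Grin2b also had a pair of neighbouring WT peaks near the middle of the gene that lacked a Tyrobp-/- partner. The annotation places both in a 3′ UTR, although they lie about 65.9% of the way along the span. The peak at chr6:135870202-135870352 had a fold enrichment of 10.7 with a log10 FDR of -1.80, and the one at chr6:135869963-135870112 had 6.84 with a log10 FDR of -0.56, an FDR of 0.275. A Tyrobp-/- peak without a partner in the 3′ UTR (chr6:135714971-135715121) was low at 1.73 with a log10 FDR of -15.0.

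Grin2c, which in the brain is best known from cerebellar granule cells and astrocytes, had 1 peak in each genotype. It covered 750 bases of the 3′ UTR in WT mice (chr11:115249289-115250038) at 5.65 and 780 bases in Tyrobp-/- mice (chr11:115249169-115249948) at 7.31, a log2 ratio of 0.37. The log10 FDR was -149 and -222.

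Grin2d, known in the adult hippocampus mainly from interneurons, lies on the reverse strand of chromosome 7 (45831883 to 45878378), and its 4 pairs were all lower in Tyrobp-/- mice. The 3′-most pair (WT chr7:45831883-45832093) had 5.17 in WT and 3.32 in Tyrobp-/- mice, a log2 ratio of -0.64. The adjacent 3′ UTR pair (WT chr7:45832213-45832873) had 10.6 and 9.05, a log2 ratio of -0.23. An exon pair (WT chr7:45834892-45835249) had 7.92 and 7.22, and the 5′ UTR pair (WT chr7:45866617-45869827) had 6.51 and 6.35, with log2 ratios of -0.13 and -0.04. All 4 were within the range that holds the middle 90% of pairs over all genes. Tyrobp-/- mice had 3 peaks of this gene without a partner, at 6.99, 6.67 and 1.88, and WT mice had 1, at 3.58. The peak at 1.88 shared all of its 181 bases with the WT 5′ UTR peak. The peak at 3.58 shared all of its 121 bases with the paired Tyrobp-/- 5′ UTR peak. The peaks at 1.88 and 3.58 thus lacked a best partner, not an overlap, while those at 6.99 and 6.67 overlapped no WT peak.

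One of the Grin2d 5′ peaks can be shown in sequence. A RefSeq window assigned to a start of Grin2d (GRCm38.p6, chr7:45866632-45866931, reverse strand) lies inside the WT 5′ UTR peak. It shares 181 bases with the Tyrobp-/- peak of 1.88. The RefSeq gene reaches further upstream, to position 45871194, so this window lies within the gene rather than at its 5′ end. Of the 7 genes, 4 had such a window (Grin1, Grin2c, Grin2d and Grin3b), and the Grin2d window alone overlapped a peak of its gene. The letters GGAC, read on the strand of the gene only, occurred 0 times in it, beside a match in 65.6% of the 32851 windows of the same length. The shorter GAC occurred 1 time, beside 96.9% of windows. The stretch around that match (chr7:45866806-45866834, reverse strand) lies in peaks of both genotypes and is printed 5′ to 3′ with GAC in capitals.
Grin2d: cccctctcatcctGACtctgcatctccct
A match of these letters is a description and does not mark a methylated base.

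Grin3a, on the reverse strand of chromosome 4 (49661611 to 49845549), had 4 pairs and no unpaired peak. Its 3′ UTR pairs were higher in Tyrobp-/- mice. The 3′-most (WT chr4:49661611-49661880) had 3.49 in WT and 5.93 in Tyrobp-/- mice, a log2 ratio of 0.76, higher than 89.3% of all pairs. The other (WT chr4:49665084-49670080) had 7.46 and 9.01, a log2 ratio of 0.27. Toward the 5′ end, a peak reaching over introns (WT chr4:49770529-49844397, 1558 exonic bases) had 11.5 and 11.2, and the 5′ UTR pair (WT chr4:49844786-49845744) had 10.5 and 8.58, with log2 ratios of -0.04 and -0.29. The caller divided these exons differently in the genotypes, so the long WT peak also overlapped the Tyrobp-/- peak of the 5′ UTR.

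Grin3b, on the forward strand of chromosome 10 (79970715 to 79977190) and best known from motor neurons, had 1 pair, with high values and weak support. The WT peak (chr10:79973765-79974364) had 15.6 and the Tyrobp-/- peak (chr10:79973281-79974394) had 17.2, a log2 ratio of 0.14, with a log10 FDR of -3.08 and -3.53. The other WT peaks, at 7.81 and 5.86, had an FDR of 0.0851 and 0.139. The peak at 7.81 shared 181 bases with the Tyrobp-/- peak, which was paired with the WT peak at 15.6.

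**Figure D4:**
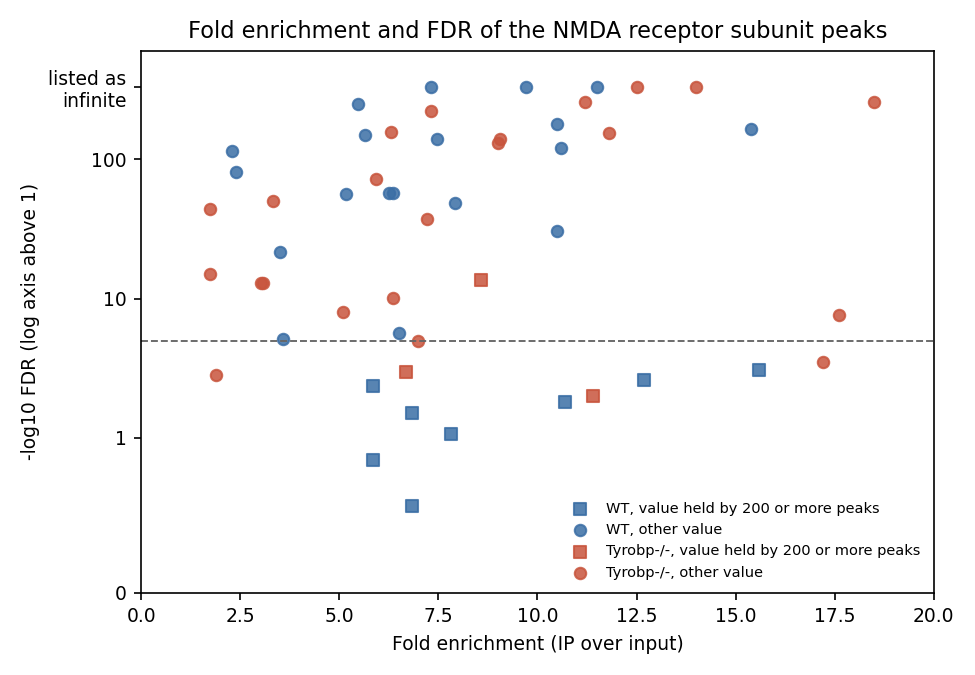
Fold enrichment (horizontal axis) against the -log10 FDR of IP over input (vertical axis, logarithmic above 1) for every peak of the 7 genes, WT in blue and Tyrobp-/- in red. Squares are values of fold enrichment that 200 or more peaks of the same list share, and the dashed line is at a log10 FDR of -5. All 8 WT squares lie below the line, between 5.86 and 15.6 in fold enrichment, while 1 of the 3 Tyrobp-/- squares (Grin3a, 8.58) lies above it.

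High fold enrichment did not go with strong support in every peak. The Grin3b peak at 15.6 and the Grin2a 3′ UTR peak at 15.4 were nearly equal in fold enrichment, while their log10 FDR was -3.08 and -166. Many peaks of a list shared exactly the same printed value. In the WT list, 1281 peaks were at 6.84, 963 at 7.81 and 436 at 5.86, and in the Tyrobp-/- list 1361 were at 6.67. Values held by at least 200 peaks made up 23.2% of the WT and 24% of the Tyrobp-/- list. Among the NMDA receptor genes they were held by 8 of 27 WT and 3 of 25 Tyrobp-/- peaks. These 8 WT peaks were all the WT peaks of the family with a log10 FDR above -5, and had a median of 150 exonic bases against 599 in the others. In the Tyrobp-/- list the match was looser. Of its 3 such peaks 2 had a log10 FDR above -5, out of 5 of the family above it, while the Grin3a peak at 8.58, a value held by 846 peaks, had 839 exonic bases and a log10 FDR of -13.6. The 8 WT peaks were the exon peaks of Grin1, the first-exon peak of Grin2a, the mid-gene peaks of Grin2b and all 3 peaks of Grin3b. The number of reads behind a single peak was not analysed here, and its part in these values was not tested.

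Set out by position, 3′ UTR pairs were mostly higher in Tyrobp-/- mice and 5′ UTR pairs mostly lower. Of 8 pairs in 3′ UTRs, from 5 genes, 6 were higher (Grin2a, Grin2b, Grin2c and Grin3a) and 2 lower (both Grin2d), with a median log2 ratio of 0.32. Over all genes, 57.7% of 12669 such pairs were higher and the median was 0.08. Of 5 pairs in 5′ UTRs, from 4 genes, 1 was higher (Grin2b) and 4 were lower, with a median of -0.29, against 49.2% higher and a median of -0.01 among 4179 pairs of all genes. With 2 of those 5 pairs being the duplicate calls of Grin2a, 3 places in 3 genes were lower. With overlapping calls taken as 1 unit, their log2 ratios were -0.32 (Grin2a), -0.04 (Grin3a) and -0.04 (Grin2d). The Grin3a unit takes in the long peak over introns and carries its values, 11.5 in WT and 11.2 in Tyrobp-/- mice. It is thus not a second value of the Grin3a 5′ UTR pair, which was at 10.5 and 8.58. The Grin3a and Grin2d pairs were not formed when an overlap of at least 50% of each peak was required. The Grin2a value was -1.05 as pairs and -0.32 as 1 unit, while the Grin2d value was -0.04 both ways. The part of the division of peaks in the lower values was not tested. Pairs of 1 gene come from the same transcripts and are not independent.

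The authors' table that compares the genotypes held 5640 rows, of which 3 belonged to 2 of the 7 genes. The rule by which rows entered it is not given in the sources used here. They were the exon peak of Grin1 (chr2:25312491-25312611), the 3′-most peak of Grin2b (chr6:135713233-135713623) and the mid-gene peak of Grin2b (chr6:135870232-135870352), which overlapped a WT peak and no Tyrobp-/- peak. Per 100 WT peaks there were 11.1 rows for the family and 16.8 for all genes.

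Values for the other glutamate receptors are set beside these. The 4 AMPA receptor genes (Gria1 to Gria4), which carry fast excitatory transmission, had 7 WT and 11 Tyrobp-/- peaks and 6 pairs, with log2 ratios from -0.57 to 0.31 and a median of -0.14. Of the 5 kainate receptor genes (Grik1 to Grik5), 4 had peaks, 11 in each genotype, and their 8 pairs ran from -0.52 to 0.46 with a median of -0.18. In neither group did a pair pass 2-fold, beside 6.93% higher and 6.06% lower over all genes, so that few or none would be met among 6 or 8 pairs at the background share. The difference between the receptor groups was not tested.

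Of 30 genes whose proteins anchor, modify or act with the NMDA receptor, 26 had a peak in at least 1 genotype. Their 50 pairs had a median log2 ratio of 0.05, with 27 higher and 23 lower in Tyrobp-/- mice, beside 53.6% of all pairs higher. Past 2-fold, 2 pairs were higher and 4 lower, beside 6.93% and 6.06% of all pairs. Among the genes with the highest WT values were Ephb2, a receptor tyrosine kinase that binds GluN1 (22.3 in WT, 17.1 in Tyrobp-/-), and Dlg2, the scaffold PSD-93 (21.1 and 16.8).

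Among the 10 scaffold and anchoring genes, the 5′ UTR pair of Dlg1 (SAP97) was at 3.32 in WT and 12.4 in Tyrobp-/- mice, a log2 ratio of 1.90, with a log10 FDR of -1.39 and -2.30. In Dlg2, a 5′ UTR pair was at 16.6 and 3.62 and a first-exon pair at 4.52 and 2.18, log2 ratios of -2.20 and -1.05. Support was again weak in Tyrobp-/- mice (log10 FDR of -1.70 and -1.83), and in WT mice the log10 FDR was -3.35 and -7.3. Among the 7 signalling genes, the 5′ UTR pair of Nos1, the neuronal nitric oxide synthase that is tethered near the receptor, was at 7.53 and 3.39, a log2 ratio of -1.15, with a log10 FDR of -185 and -18.7. Among the 4 genes of co-agonist supply and clearance, Slc6a9, the glycine transporter GlyT1, differed in opposite directions at its ends. Its 5′ UTR pair was at 3.09 in WT and 10.5 in Tyrobp-/- mice, a log2 ratio of 1.76, with a log10 FDR of -3.72 and -9. Its 3′ UTR pair was at 11.2 and 3.83, a log2 ratio of -1.55, with a log10 FDR of -246 and -197. The kinases and phosphatases of the subunits (4 pairs) and the interacting membrane proteins (5 pairs) had none past 2-fold.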

How the data were processed

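Per the labels and the study's methods, polyadenylated RNA of hippocampus was fragmented and immunoprecipitated with an m6A antibody. The authors trimmed reads with fastp, mapped them with HISAT2 to the mouse genome of Ensembl v96 (GRCm38), called peaks with exomePeak and annotated them with ChIPseeker. Versions are not given in the sources used here. For each library the authors deposited read counts (raw and valid) and percent GC, and for each peak a fold enrichment (a ratio of IP over input) with its p-value and log10 FDR. The lists hold peaks whose FDR exceeds 0.05. The genotype table also holds the authors' log2 fold change, p-value and log10 FDR of the comparison, which were not used. Depth behind single peaks is unknown, and replicates were pooled before peak calling.

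The 7 symbols matched RefSeq genes of GRCm38.p6. Peaks were paired as reciprocal best partners by exonic overlap of at least 1 base, and a 2-fold ratio was used as a threshold of size. No test was run, since the pooled values used here carry no replicate error. The matching was tested on simulated data with 1 slightly shifted peak per gene. That test could not show how overlapping or divided calls within a gene are matched. Members, lists and rules were chosen with earlier results of these data known. All 7 members are described, and of the 30 associated genes those with a pair past 2-fold and the 3 with the highest WT value, of which 1 is not reported here. The limit of 200 peaks with a shared value was chosen after the values were seen. Alternatives were stricter FDR and fold enrichment, other overlap rules, merged peaks, 1 peak per gene, a 1.5-fold ratio and centring. Python 3.11.15, pandas and scipy were used.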

Additional observations from a re-analysis of the deposited data

How the results depend on the processing

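Between 16 and 17 pairs were formed under the alternatives that change the matching, against 19, and the median log2 ratio stayed above 0 under the 6 that were run, between 0.08 and 0.23. With 1 peak per gene, the highest, the median fold enrichment was 10.7 in WT and 14 in Tyrobp-/- mice. Pairs past 2-fold toward Tyrobp-/- numbered 0 at a log10 FDR of at most -5 in both lists, since the Grin1 pair was then left out, and 3 at a ratio of 1.5. Pairs past 2-fold toward WT numbered 0 with a fold enrichment of at least 4 in both lists, which removes the Tyrobp-/- calls of the Grin2a 5′ UTR, 0 with overlapping peaks as 1 unit and 1 when spans with introns were matched. No single pair changed sign under any alternative that kept it. No paired analysis was possible because the replicates of a genotype were pooled before peaks were called, so leaving out a replicate could not be done either. The number of reads behind each peak is unknown here.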
